A study of Mus musculus with 7 samples.

Results

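Granule neurons are the small excitatory neurons of the cerebellum and its most numerous cells. They arise from progenitors that divide in the external granule layer after birth, then migrate inward, form parallel fibres and take on the synaptic and membrane proteins of mature cells. The genes described here are 7 that are used as markers of mature granule neurons, namely Fat2, Kcnk9, Vsnl1, Chn2, Slc17a7, Slc17a6 and Rbfox3, and they are called markers below in that sense. Whether the name holds for all of them was not tested. Fat2, Kcnk9 and Rbfox3 were mostly higher where the dividing-cell gene Mki67 was higher, in 8, 7 and 7 of 9 library pairs within genotypes. Of all genes tested, 15.5% ran opposite to Mki67 in at most as many pairs as Fat2, and 26.7% in at most as many as Kcnk9 or Rbfox3. Slc17a6 was highest in a library with genes of other neurons. The 7 genes were taken by symbol from the 55450 genes of the per-library tables, and each symbol matched 1 gene. All 7 were among the 16813 genes that passed the filter on low counts.

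Polyadenylated RNA was measured in cerebella of C57BL/6 mouse pups at postnatal day 15. The 4 KO/+ libraries came from pups with 1 knockout and 1 wild-type allele of L3mbtl3, a gene for a chromatin reader with MBT domains, and the 3 WT libraries from wild-type pups. The question was which of these markers differ between the genotypes, and whether they run against Mki67, a marker of dividing cells. The labels give neither the deleted part of L3mbtl3 nor litter, sex or separate cultures of the samples, so p-values measure the spread between these libraries.

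Between 29248360 and 39660499 expected counts were assigned to genes in KO/+ libraries, against 36269844 to 43761792 in WT libraries. The level of L3mbtl3, in CPM (counts scaled to library size), was 17.4 to 23.0 CPM in KO/+ and 22.6 to 26.8 CPM in WT libraries, so the ranges overlapped and do not check the genotype labels. Cerebellar RNA was present in every library, with the granule neuron receptor gene Gabra6 at a mean of 524 TPM (a scale that also corrects for transcript length) in KO/+ and 431 TPM in WT, and the caudal hindbrain genes Hoxb3, Hoxb5 and Hoxa5 at 0.34 TPM or less. These low levels were highest in KO/+ replicate 4, at 0.11, 0.34 and 0.31 TPM, against at most 0.02, 0.07 and 0.07 TPM elsewhere. Libraries stood apart in other tissues' genes. In WT replicate 3 the level of Lhx9, a transcription factor of developing cerebellar nuclei and midbrain neurons, was 6.00 TPM, against at most 0.32 TPM in every other library. Meis2, a homeodomain gene, was at 16.9 TPM in WT replicate 3 and at most 2.61 TPM elsewhere, and the serotonergic gene Tph2 at 4.10 TPM and at most 0.80 TPM. Whether this library holds tissue from outside the cerebellum, and what part that has in the WT means, was not tested. Ttr, a gene of the choroid plexus, was at 2250.3, 1616, 1208 and 6.48 TPM in KO/+ replicates 1 to 4, against 2.78, 1750.0 and 21.1 TPM in WT replicates 1 to 3, so KO/+ replicate 4 was the only KO/+ library with little of it. The haemoglobin gene Hbb-bs was at 2716, 3933, 2566 and 1447 TPM in KO/+ libraries, against 1515, 1361 and 1644 TPM in WT libraries. The part of either in the markers' values was not tested.

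No marker separated the genotypes. KO/+ and WT libraries overlapped for each of the 7 markers, and 0 passed edgeR's quasi-likelihood test at a Benjamini-Hochberg adjusted p under 0.05 over all genes, where the adjusted p was 0.957 for every one. Among all 16813 genes the same test called 0 (0%), and 3.15% had an unadjusted p under 0.05. Of the markers, 1 had an unadjusted p under 0.05 (Slc17a6, lower in KO/+, where 1.9% of all genes were lower and 1.25% higher at that p). The groups did not overlap for 3.96% of all genes, of which 2.16% had all KO/+ libraries above and 1.8% all KO/+ libraries below the WT libraries. The median log2 fold change of the markers, KO/+ relative to WT, was 0.10, with 4 positive and 3 negative, beside a median of -0.0047 over all genes tested.

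**Figure D1:**
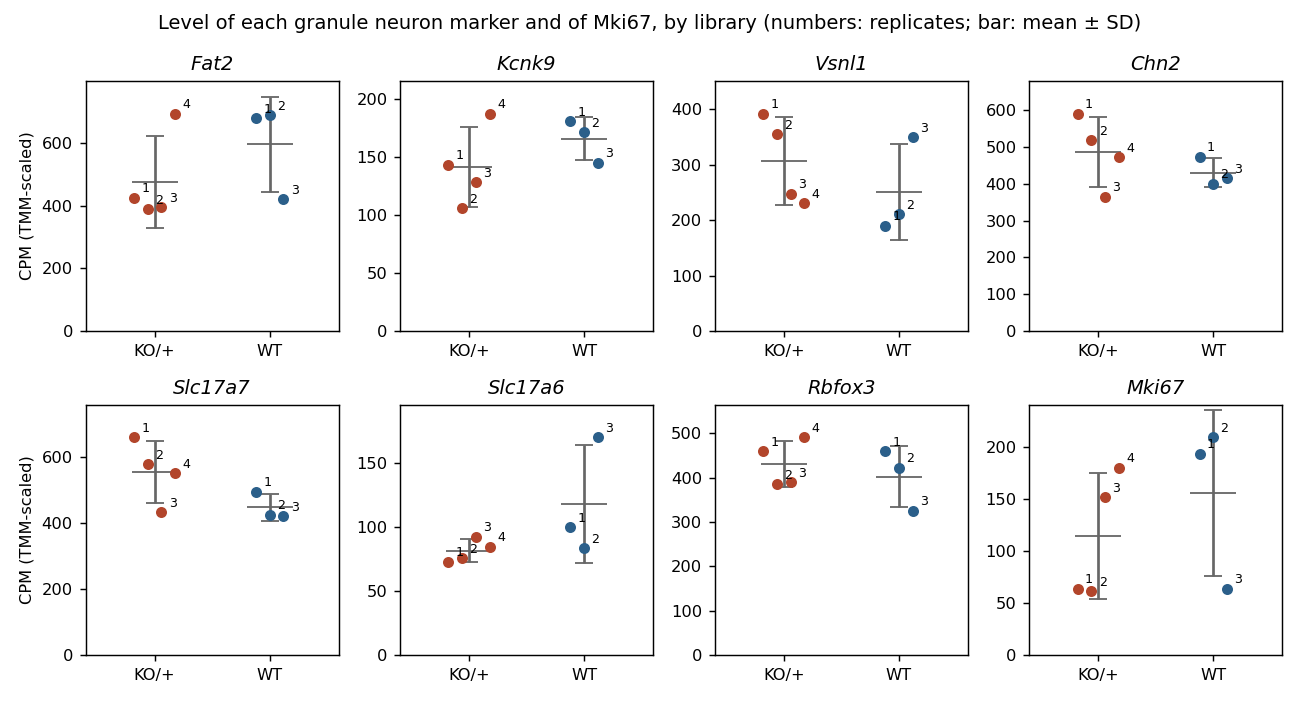
Each panel plots the normalised level of a marker or of Mki67 (CPM, linear axis from 0) in the 4 KO/+ libraries (left, red) and 3 WT libraries (right, blue). Numbers are replicates and the grey bar is the mean ± SD. The groups overlap in every panel, and WT replicate 3 stands at 169.6 CPM for Slc17a6, the highest of all libraries.

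Levels per transcript length fell into a high and a low set. Over all 7 libraries Chn2 averaged 333 TPM, Rbfox3 302 TPM, Slc17a7 297 TPM and Vsnl1 270.3 TPM. Neighbours in this order of the 4 high genes were not ordered the same way in all libraries, since Chn2 was above Rbfox3 in 4 of 7, Rbfox3 above Slc17a7 in 4 of 7 and Slc17a7 above Vsnl1 in 5 of 7. Fat2 averaged 56.3 TPM, and Vsnl1 was above it in 7 of 7 libraries by at least 113 TPM. Slc17a6 averaged 39.0 TPM and was above Fat2 in WT replicate 3 only. Kcnk9 was lowest at 19.0 TPM, below Slc17a6 in 7 of 7 libraries. Each of the 4 high genes exceeded between 97.0% and 97.6% of the genes tested, whereas Kcnk9 exceeded 57.5%.

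Fat2 and Kcnk9 encode membrane proteins of granule neurons and are the 2 markers with the longest transcripts. Fat2 (ENSMUSG00000055333.14; GRCm38, chromosome 11, 55250609 to 55336564, minus strand) encodes an atypical cadherin of the FAT family that lies along parallel fibres. Its level was 425, 388, 396 and 693 CPM in KO/+ replicates 1 to 4, against 679, 688 and 421 CPM in WT replicates 1 to 3. KO/+ replicate 4 was therefore higher than every WT library, while WT replicate 3 lay among the remaining KO/+ libraries. The means were 475 ± 146 CPM in KO/+ (SD, n = 4) and 596 ± 152 CPM in WT (SD, n = 3), a log2 fold change of -0.33 (SE 0.25; 95% interval -0.90 to 0.25). Leaving out KO/+ replicate 4 moved it to -0.58 (edgeR adjusted p = 0.521), leaving out WT replicate 3 to -0.52 and leaving out WT replicate 2 to -0.22.

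Kcnk9 (ENSMUSG00000036760.7; chromosome 15, 72501089 to 72546340, minus strand) encodes a TASK-type potassium leak channel that sets resting potential and input conductance. Its level was 143, 106, 128 and 187 CPM in KO/+ libraries, against 180, 171 and 145 CPM in WT libraries. As with Fat2, KO/+ replicate 4 was the highest library and WT replicate 3 the lowest WT library. Its log2 fold change of -0.23 (SE 0.18) had a 95% interval of -0.65 to 0.18, and it ranged from -0.41 without KO/+ replicate 4 to -0.12 without KO/+ replicate 2. Of the 6 listed leak channel genes of the Kcnk family, Kcnk9 included, 0 passed the test. Their log2 fold changes were positive for 3 and negative for 3 (median 0.03). Kcnk3, which encodes the related TASK channel, was at 43.9 TPM in KO/+ and 39.0 TPM in WT (log2 fold change 0.22, SE 0.13). Kcnk12 had a log2 fold change of 0.32 (SE 0.14), Kcnk1 of 0.12, Kcnk2 of -0.06 and Kcnk10 of -0.08. The log2 fold changes of all 4 Fat cadherin genes, Fat2 included, were negative, from -0.42 (Fat3) to -0.32 (Fat1), and 0 of 4 passed. Over all genes tested 48.8% had a positive log2 fold change. Long transcripts as a class, described below, had a median log2 fold change of -0.22 over 134 genes of at least 10000 bases. Whether the shared sign is particular to the Fat family or goes with transcript length was not tested.

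The libraries also differed in the level of long transcripts as a class. The mean transcript length was 14.4 kb for Fat2 and 12.3 kb for Kcnk9, against 1.90 to 4.07 kb for the other markers. Over the 134 other genes of at least 10000 bases and 10 mean CPM, the median log2 CPM relative to each gene's mean over the 7 libraries was -0.26, -0.21, 0.0044 and 0.11 in KO/+ replicates 1 to 4, against 0.088, 0.19 and 0.086 in WT replicates 1 to 3. The same quantity for Fat2 was -0.26, -0.39, -0.36 and 0.44 in KO/+ libraries, against 0.41, 0.43 and -0.28 in WT libraries. Fat2 thus lay at the class median in KO/+ replicate 1, below it in KO/+ replicates 2 and 3 and WT replicate 3, and above it in the other libraries. The median log2 fold change of these long genes was -0.22, beside 0.046 for the 2372 genes of 1000 to 2000 bases. The part of transcript length in the values of Fat2, Kcnk9 and the other Fat cadherin genes was not tested.

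**Figure D2:**
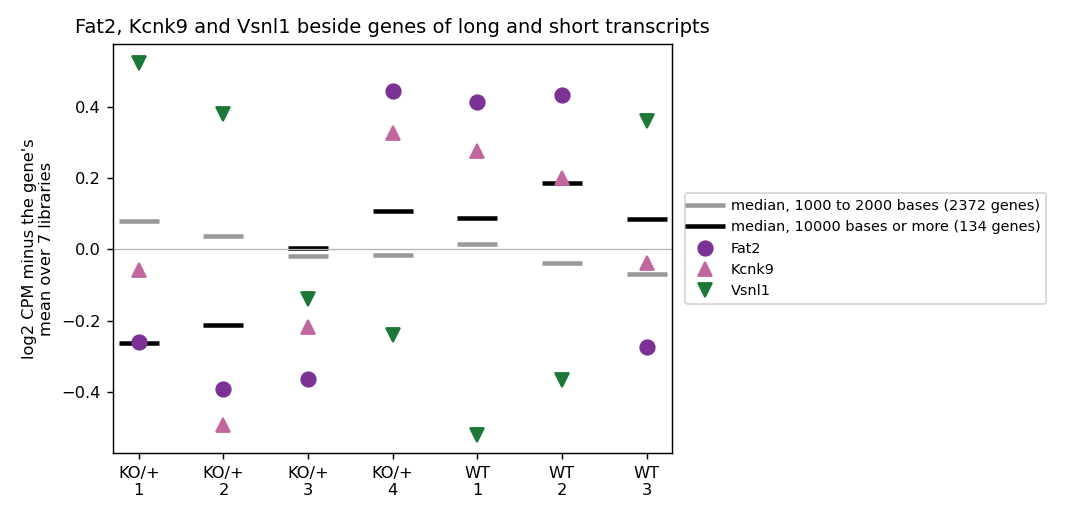
For each library, the log2 CPM of Fat2, Kcnk9 and Vsnl1 minus the gene's own mean over 7 libraries (points), beside the median of the same quantity over genes of at least 10000 bases (black bars) and of 1000 to 2000 bases (grey bars). The black bars lie at -0.26 and -0.21 in KO/+ replicates 1 and 2 and between 0.0044 and 0.19 in the other libraries, and Vsnl1 lies opposite to Fat2 except in KO/+ replicate 3.

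Vsnl1 and Chn2 encode signalling proteins. Vsnl1 (ENSMUSG00000054459.8; chromosome 12, 11325242 to 11436613, minus strand) encodes visinin-like protein 1, a calcium sensor with EF hands that moves to membranes on calcium binding. It was measured at 392, 355, 248 and 231 CPM in KO/+ libraries, against 190.1, 211 and 349.9 CPM in WT libraries. It was high in KO/+ replicates 1 and 2 and in WT replicate 3, and its lowest value was in WT replicate 1. On the log2 scale KO/+ exceeded WT by 0.29 (SE 0.26), with a 95% interval of -0.31 to 0.89, and single libraries moved it widely. It was 0.12 without WT replicate 1, 0.15 without KO/+ replicate 1, 0.17 without WT replicate 2 and 0.61 without WT replicate 3 (edgeR adjusted p = 0.598). Of the 6 listed visinin-like calcium sensor genes, Vsnl1 included, 0 passed, with 3 positive and 3 negative log2 fold changes. Vsnl1 is also expressed outside granule neurons, and the summed level of 8 GABAergic interneuron markers was 1435 to 2077 TPM in KO/+ and 1390 to 1878 TPM in WT libraries. That of 8 Purkinje cell markers was 7030 to 9348 TPM in KO/+ and 6786 to 8323 TPM in WT libraries. None of these markers was at 0, and their part in the Vsnl1 values was not tested.

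Chn2 (ENSMUSG00000004633.17; chromosome 6, 54039554 to 54301810, plus strand) encodes beta-chimaerin, which binds diacylglycerol and stimulates the GTPase activity of Rac. Its level was 589.9, 518, 365 and 471 CPM in KO/+ libraries, against 474, 400.1 and 414 CPM in WT libraries. The WT libraries lay inside the range of the KO/+ libraries, whose extremes were replicates 1 and 3. A log2 fold change of 0.18 (SE 0.16) had a 95% interval of -0.19 to 0.54, and on leaving out 1 library it lay between 0.072 without KO/+ replicate 1 and 0.28 without KO/+ replicate 3. Its relative Chn1 (alpha-chimaerin) had a log2 fold change of -0.05 (SE 0.24).

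Slc17a7 and Slc17a6 encode the vesicular glutamate transporters VGLUT1 and VGLUT2, which load glutamate into synaptic vesicles. In the developing cerebellum parallel fibres are known to pass from VGLUT2 to VGLUT1, while climbing fibres and neurons of the cerebellar nuclei keep VGLUT2. The stretches upstream of their starts and of the start of Vsnl1 are shown because these 3 genes are compared below. The transporter pair is compared by its share and Vsnl1 by its relation to Mki67. The choice does not rest on a difference that passed a test. The RefSeq promoter table (GRCm38.p6) held 6 of the 7 markers, without Kcnk9. The stretches end before the RefSeq and the GENCODE M21 start, whichever comes first, and lie at chr7:45163671-45163920 (plus strand) for Slc17a7, chr7:51621580-51621829 (plus strand) for Slc17a6 and chr12:11436614-11436828 (minus strand) for Vsnl1. Capitals mark CAGATG, an E-box of the kind that neurogenic bHLH factors bind, and TTGGC, a motif of nuclear factor I, each on either strand.
Slc17a7: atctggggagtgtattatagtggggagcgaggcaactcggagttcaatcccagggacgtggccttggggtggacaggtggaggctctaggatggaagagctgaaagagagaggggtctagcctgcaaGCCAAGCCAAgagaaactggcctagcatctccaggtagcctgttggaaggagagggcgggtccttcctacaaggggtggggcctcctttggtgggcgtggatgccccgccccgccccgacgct
Slc17a6: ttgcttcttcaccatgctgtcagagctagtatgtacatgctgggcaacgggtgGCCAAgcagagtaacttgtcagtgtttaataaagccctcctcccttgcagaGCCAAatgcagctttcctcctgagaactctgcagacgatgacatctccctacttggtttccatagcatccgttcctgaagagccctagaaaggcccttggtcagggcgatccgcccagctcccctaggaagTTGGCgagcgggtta
Vsnl1: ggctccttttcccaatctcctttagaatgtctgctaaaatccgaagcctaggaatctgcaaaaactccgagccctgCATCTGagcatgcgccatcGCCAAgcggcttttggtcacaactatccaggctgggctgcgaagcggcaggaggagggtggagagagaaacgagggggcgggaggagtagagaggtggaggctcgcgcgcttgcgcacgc

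TTGGC or its complement occurred 2 times in the Slc17a7 stretch, 3 times in the Slc17a6 stretch and 1 time in the Vsnl1 stretch. Of 32851 RefSeq promoters, 41.5% held it in the same 250 bases and 37.3% in 215 bases, the length of the Vsnl1 stretch. CAGATG was in the Vsnl1 stretch alone of the 3, and in 12.7% of all promoters over that length. CAGCTG, a further E-box searched, was in none of the 3 and in 13.0% of all promoters over 250 bases. The 2 matches in Slc17a7 adjoin without overlap, and a match describes the sequence only. The GC content was 61.2% for Slc17a7, 53.2% for Slc17a6 and 58.6% for Vsnl1, beside a median of 52.4% over all promoters.

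Slc17a7 (ENSMUSG00000070570.5; chromosome 7, 45163949 to 45176142) was at 659, 578, 433 and 549.7 CPM in KO/+ libraries, against 495, 425 and 421 CPM in WT libraries. KO/+ replicates 1, 2 and 4 were above every WT library and KO/+ replicate 3 was below WT replicate 1. Its log2 fold change of 0.31 (SE 0.15) had a 95% interval of -0.02 to 0.65, and on leaving out 1 library it lay between 0.22 without KO/+ replicate 1 and 0.40 without KO/+ replicate 3. Slc17a6 (ENSMUSG00000030500.6; chromosome 7, 51622006 to 51671119) was at 72.5, 75.4, 92.2 and 84.5 CPM in KO/+ libraries, against 99.6, 83.0 and 169.6 CPM in WT libraries. The 4 KO/+ libraries lay close together, and WT replicate 3 held the highest value. Its log2 fold change of -0.53 (SE 0.22) had a 95% interval of -1.05 to -0.02 (unadjusted p = 0.0443, edgeR adjusted p = 0.957). Without WT replicate 3 it was -0.17, and without WT replicate 2 it was -0.74.

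The Slc17a7 share of Slc17a7 plus Slc17a6 TPM was 93.0%, 91.9%, 87.3% and 90.4% in KO/+ replicates 1 to 4, against 87.7%, 88.2% and 78.5% in WT replicates 1 to 3. The lowest share was that of WT replicate 3, and KO/+ replicate 3 was below the other WT libraries. The share averaged 90.7% ± 2.47 in KO/+ (SD, n = 4) and 84.8% ± 5.47 in WT (SD, n = 3), a difference of 5.87 percentage points (exact permutation test, two-sided, p = 0.114; the smallest possible p is 0.0286). Without WT replicate 3 the difference was 2.71 percentage points (exact permutation p = 0.333). That test has fewer splits, too few to give a p under 0.05. The summed level of 8 listed markers of unipolar brush cells and cerebellar nuclei was 72.5 to 96.4 TPM in KO/+ and 64.1 to 131 TPM in WT libraries, with the highest sum in WT replicate 3. The summed level of 6 brainstem markers was 0.77 to 1.61 TPM in KO/+ and 0.75 to 4.71 TPM in WT libraries. The part of such cells in the Slc17a6 level was not tested. In whole tissue, fewer cells of a type and less RNA per cell cannot be told apart.

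**Figure D3:**
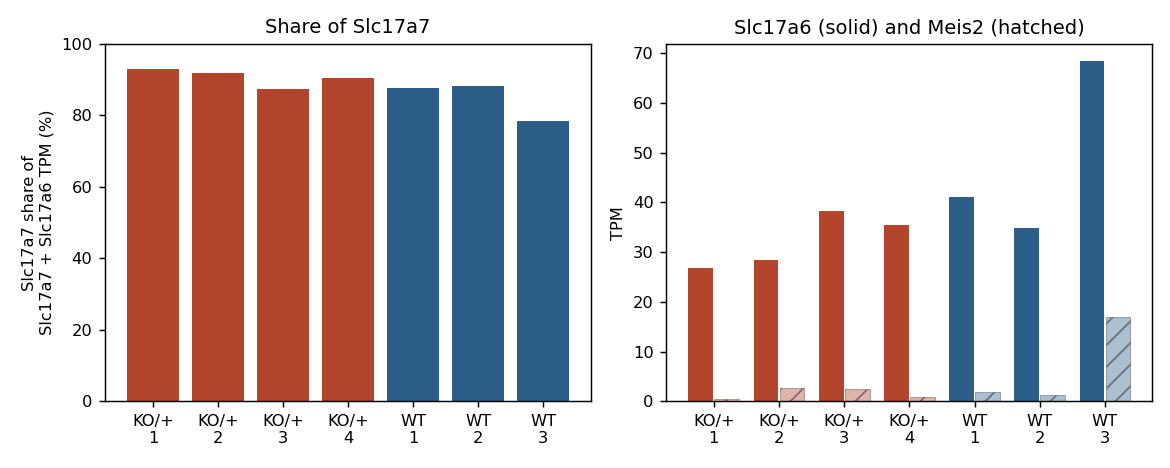
Left, the Slc17a7 share of Slc17a7 plus Slc17a6 TPM (percent, from 0) in each library, 4 KO/+ (red) then 3 WT (blue). Right, the TPM of Slc17a6 (solid) and Meis2 (hatched) in the same libraries. WT replicate 3 has the lowest share, 78.5%, and the highest Slc17a6 and Meis2 levels, 68.4 and 16.9 TPM.

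Of the other genes of glutamate transport listed, the plasma membrane glutamate transporter gene Slc1a1 was at 32.5 to 37.0 CPM in KO/+ and 37.5 to 55.9 CPM in WT, with no overlap (log2 fold change -0.33, SE 0.14; edgeR adjusted p = 0.957). Its highest level was also in WT replicate 3. Slc17a8, which encodes the vesicular transporter VGLUT3, was at 0.15 TPM or less in every library and did not pass the filter.

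Rbfox3 (ENSMUSG00000025576.17; chromosome 11, 118489762 to 118911597, minus strand) encodes NeuN, a splicing regulator used as a nuclear marker of mature neurons. Its level was 459.7, 385, 389.6 and 491 CPM in KO/+ libraries, against 459, 422 and 326 CPM in WT libraries. WT replicate 3 was the lowest of all libraries and the other 2 WT libraries lay within the KO/+ range. Its log2 fold change of 0.10 (SE 0.14) had a 95% interval of -0.23 to 0.43, and its sign turned without WT replicate 3 (-0.032). It was 0.021 without KO/+ replicate 4, 0.15 without KO/+ replicate 2 and 0.20 without WT replicate 1. The family members Rbfox1 and Rbfox2 had log2 fold changes of -0.07 (SE 0.12) and -0.04 (SE 0.088).

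**Figure D4:**
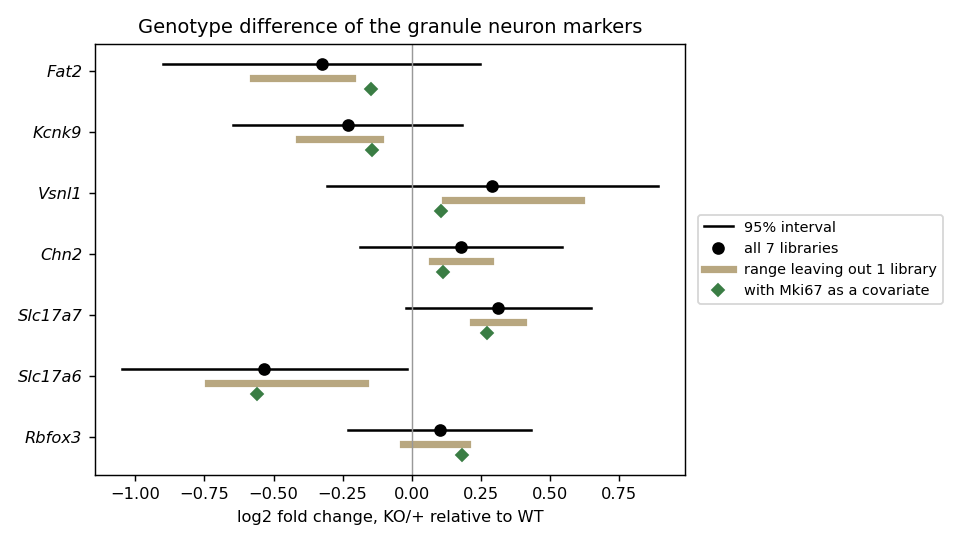
Log2 fold change of each marker, KO/+ relative to WT, with all 7 libraries (black point, 95% interval), the range on leaving out 1 library (brown bar) and the value with Mki67 as a covariate (green diamond). The estimates run from -0.53 (Slc17a6) to 0.31 (Slc17a7), and only the brown bar of Rbfox3 crosses 0.

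The markers did not share 1 relation to Mki67. Mki67 was at 63.5, 61.4, 152 and 180 CPM in KO/+ replicates 1 to 4, against 194, 209 and 63.6 CPM in WT replicates 1 to 3, so that both genotypes held low and high libraries. Since no library lay between 63.6 and 152 CPM, no pooled correlation is given. As a description, with no test, the within-genotype slope from an edgeR fit with genotype and log2 Mki67 CPM as terms gives the log2 change of a gene per doubling of Mki67. The slope was positive for Fat2 (0.38, SE 0.11), Kcnk9 (0.22, SE 0.093) and Rbfox3 (0.16, SE 0.076). Without KO/+ replicate 4 that of Kcnk9 was 0.12, and without WT replicate 3 that of Rbfox3 was 0.058. It was negative for Vsnl1 (-0.47, SE 0.050), Slc17a6 (-0.19, SE 0.15), Chn2 (-0.12, SE 0.097) and Slc17a7 (-0.08, SE 0.090). Over all genes tested the median slope was -0.0054, 51.1% of genes had a negative slope, and the middle 90% lay between -0.43 (5th percentile) and 0.41 (95th percentile).

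Vsnl1 ran against Mki67 in both genotypes. In KO/+ it was at 392 and 355 CPM in the libraries with 63.5 and 61.4 CPM of Mki67, and at 248 and 231 CPM in those with 152 and 180 CPM. In WT it was at 349.9 CPM in the library with 63.6 CPM of Mki67, and at 190.1 and 211 CPM in those with 194 and 209 CPM. Only 4.08% of genes had a lower slope, and it stayed between -0.49 and -0.44 on leaving out any 1 library. Within genotypes there are 9 pairs of libraries, and in 7 of them Vsnl1 was lower where Mki67 was higher. Of all genes tested, 26.2% were opposite in at least as many pairs.

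Fat2 ran with Mki67, not against it. In 8 of 9 pairs the library with more Mki67 had more Fat2, and 94.3% of genes had a lower slope. Of all genes tested, 15.5% had at most as many opposite pairs. The exception in level was KO/+ replicate 3, which held 152 CPM of Mki67 but 396 CPM of Fat2, close to the 388 CPM of the library with the least Mki67. Kcnk9 and Rbfox3 moved with Mki67 in 7 of 9 pairs each, where 26.7% of all genes had at most as many opposite pairs. The median slope of the 134 long genes was 0.13, beside slopes of 0.38 for Fat2 and 0.22 for Kcnk9.

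The transporters and Chn2 lay between these. Chn2 was opposite to Mki67 in 6 of 9 pairs, where 38.4% of all genes had at least 6 opposite pairs. Both transporters were opposite in 5 of 9, where 50.7% of all genes had at least 5 opposite pairs. The slope of Chn2 was -0.044 without KO/+ replicate 3, -0.058 without KO/+ replicate 1 and -0.27 without WT replicate 3. The slope of Slc17a7 was -0.0078 without KO/+ replicate 3, -0.019 without KO/+ replicate 1 and -0.22 without WT replicate 3. That of Slc17a6 was -0.078 without WT replicate 2 and turned to 0.16 without WT replicate 3, the low-Mki67 library with 169.6 CPM of Slc17a6. In KO/+ libraries the Slc17a7 share was 93.0% and 91.9% where Mki67 was low and 87.3% and 90.4% where it was high, whereas in WT libraries it was 78.5% where Mki67 was low and 87.7% and 88.2% where it was high. With Mki67 as a covariate the log2 fold change between genotypes was -0.15 for Fat2, -0.14 for Kcnk9, 0.11 for Vsnl1, 0.11 for Chn2 and 0.27 for Slc17a7, nearer to 0 than without it. It was farther from 0 for Slc17a6 (-0.56) and Rbfox3 (0.18). The smallest edgeR adjusted p of these was 0.777.

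**Figure D5:**
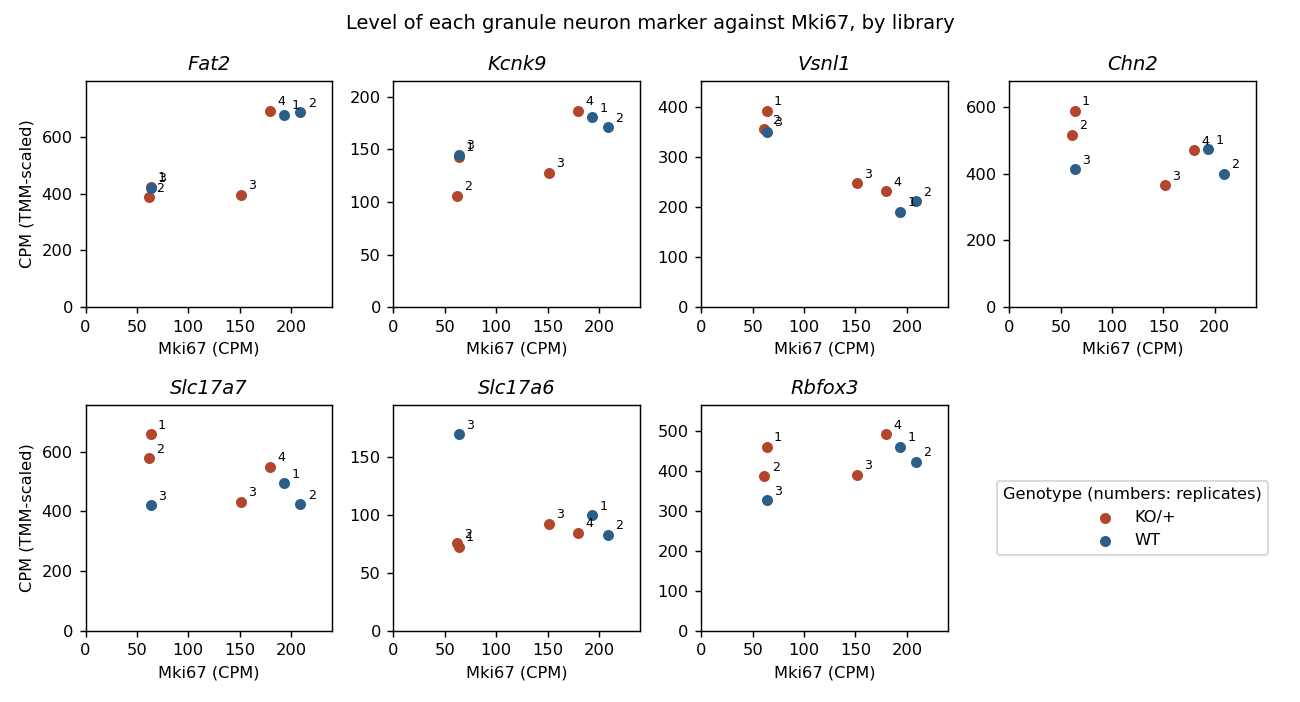
Each panel plots a marker's level (CPM, from 0) against Mki67 (CPM, from 0) in the 4 KO/+ (red) and 3 WT (blue) libraries, numbered by replicate. The libraries fall at 61.4 to 63.6 CPM or at 152 to 209 CPM of Mki67. Vsnl1 is higher at low Mki67 in both genotypes, Fat2 is lower there than in every high-Mki67 library but KO/+ replicate 3, and Slc17a6 is high in WT replicate 3 alone.

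Slopes on Mki67 were also computed for other gene lists. All 13 listed genes of progenitors and cell division, Mki67 included, and all 10 listed genes of differentiating granule neurons had positive slopes, with medians of 0.74 and 0.37. All 8 Purkinje cell and all 8 interneuron genes had negative slopes, with medians of -0.21 and -0.29. Of 22 other granule neuron genes, 12 had negative slopes (median -0.01). The GABA-A receptor gene Gabra6 had a slope of -0.30. The transcription factor genes Neurod1 and Pax6, which are on before and during maturation, had slopes of 0.22 and 0.25. These slopes are descriptions over the same 7 libraries and Mki67 is part of the first list.

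In the comparison of genotypes 21 of these 22 granule neuron genes had positive log2 fold changes (median 0.15), where 48.8% of all genes were positive, and 0 of 22 passed. Lists of other cells were uneven too. Log2 fold changes were positive for 0 of 13 progenitor and cell cycle genes (median -0.23), 1 of 10 genes of differentiating granule neurons (median -0.19) and 1 of 8 interneuron genes (median -0.15). They were positive for 6 of 8 Purkinje cell genes (median 0.097), 5 of 6 genes of Bergmann glia and astrocytes (median 0.10), all 6 choroid plexus genes (median 1.03) and all 4 red blood cell genes (median 0.87). None of these passed, and their part in the granule neuron list was not tested. The synapse organiser gene Cbln1 averaged 682 TPM in KO/+ and 572 TPM in WT (log2 fold change 0.31, SE 0.13). The transcriptional corepressor gene Nab2 was at 69.4, 56.4, 38.6 and 33.1 CPM in KO/+ libraries, against 30.3, 29.4 and 36.2 CPM in WT libraries (log2 fold change 0.63, SE 0.24). Its WT replicate 3 lay above KO/+ replicate 4, so the groups overlapped. Both had an edgeR adjusted p of 0.957.

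Nearness of pattern was measured as the root mean square difference of log2 CPM, each gene centred on its own mean, over the 7 libraries and the 10519 genes of at least 10 mean CPM. Among the markers Chn2 and Slc17a7 were nearest, with a difference of 0.077, followed by Fat2 and Kcnk9 with 0.18. Slc17a6 was 0.44 from its nearest marker, Kcnk9, which exceeds its own spread of 0.38 around its mean. The same held for Rbfox3, at 0.20 from Slc17a7 beside its own spread of 0.19. Vsnl1 was 0.34 from Chn2 and 0.72 from Fat2, the greatest distance of any pair. The nearest genes outside the markers were Reln (0.068) and Champ1 (0.083) for Fat2, Stx1a (0.061) and Abcc5 (0.063) for Kcnk9, and mt-Rnr1 (0.062) and Ddo (0.098) for Vsnl1. For Slc17a7 they were Cbln1 (0.046) and Mus81 (0.054), for Chn2 Stard10 (0.058) and Zkscan14 (0.059), for Slc17a6 Vstm2l (0.091) and 6330403K07Rik (0.11), and for Rbfox3 Plekhh3 (0.028) and Pxn (0.031).

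The spread between libraries of 1 genotype differed among the markers. The biological coefficient of variation in the edgeR fit was 24.6% for Vsnl1, 23.9% for Fat2, 21.2% for Slc17a6 and 17.7% for Kcnk9. For Chn2, Slc17a7 and Rbfox3 it was 16.2%, 15.1% and 15.0%, near the median of 15.2% over all genes. Within each genotype, the coefficient of variation of CPM was 11.0% in KO/+ and 39.2% in WT for Slc17a6, 25.9% in KO/+ and 34.6% in WT for Vsnl1, and 12.1% in KO/+ and 17.2% in WT for Rbfox3. For the other markers it was larger in KO/+. It was 30.7% in KO/+ and 25.4% in WT for Fat2, and 24.3% in KO/+ and 11.1% in WT for Kcnk9. For Chn2 it was 19.4% in KO/+ and 9.10% in WT, and for Slc17a7 16.9% in KO/+ and 9.28% in WT.

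Isoform composition of the markers was close between genotypes. RSEM's isoform percentage gives each transcript's percent of its gene's transcripts. Kcnk9 has 1 annotated transcript, so its composition is fixed. A single transcript held a mean of 99.8% for Vsnl1, 96.8% for Slc17a6, 96.7% for Fat2 and 95.6% for Slc17a7. The other markers used several. Chn2 is known to give a longer form with an SH2 domain and a shorter form without it, from different start sites. Its 13-exon transcript Chn2-201, which starts at position 54039573, held 52.7% ± 0.438 in KO/+ (SD, n = 4) and 53.2% ± 1.56 in WT (SD, n = 3). The 7-exon Chn2-202, which starts at 54272490, held 34.8% ± 1.26 in KO/+ and 36.1% ± 1.24 in WT. Both have the same direction between genotypes, with log2 fold changes of 0.20 (SE 0.17) and 0.16 (SE 0.15).

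The noncoding 2-exon transcript Chn2-208 held 13.9%, 12.6%, 11.5% and 10.7% in KO/+ libraries, against 9.52%, 10.4% and 11.2% in WT libraries, where KO/+ replicate 4 lay below WT replicate 3 (log2 fold change 0.45, SE 0.24). Rbfox3-203 held 34.8% ± 0.83 in KO/+ and 34.98% ± 1.55 in WT, Rbfox3-204 held 31.3% ± 1.97 in KO/+ and 29.9% ± 1.75 in WT, and Rbfox3-205 held 21.9% ± 1.31 in KO/+ and 21.6% ± 0.55 in WT (SD, n = 4 and n = 3). Of 44375 transcripts tested, edgeR called 0 (0%) at an adjusted p under 0.05, those of the markers among them, and 1201 (2.71%) had an unadjusted p under 0.05. The assignment of reads among transcripts that share exons is an estimate whose error was not modelled.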

How the data were processed

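Cerebella of 4 KO/+ and 3 WT pups were compared, grouped by sample title. The submitters' processing notes list RSEM 1.3.1, STAR 2.5.2a, Trimmomatic 0.39 and bcl2fastq, with builds GRCm38 and mm10, and the sources used here give no settings. For each gene or transcript the authors deposited an expected count, which is RSEM's estimate of its reads and need not be whole. They also deposited TPM, corrected for length and library total per the file headers, and for transcripts the percent of the gene's transcripts (isoform percent), per the file headers. Tables of the whole series were not used.

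Expected counts were rounded, filtered with filterByExpr, scaled by TMM factors (0.978 to 1.02) and fitted with edgeR 4.0.16 (glmQLFit and glmQLFTest, robust; threshold 0.05 after Benjamini-Hochberg adjustment over all genes), with intervals at 95%. Centred log2 CPM used a prior count of 2. The markers, gene lists and rules were chosen with earlier results of these data known. The length classes and the descriptions of libraries that stood apart were added after the values were seen. Named genes were the markers, Mki67, L3mbtl3, members of the granule neuron and family lists, the 2 nearest genes per marker and transcripts of at least 10% mean isoform percentage. Lhx9, Meis2, Tph2, Hoxb3, Hoxb5, Hoxa5, Ttr and Hbb-bs, from cell type lists, were named after their values were seen. Alternatives used DESeq2 1.42.0, limma 3.58.1, other scalings and filters, a replicate block, Mki67 as a covariate and leaving out each library. The exact permutation test with all 7 libraries ran over 35 splits (Python 3.11.15), and those without 1 library ran over fewer. Gene positions are from GENCODE M21 (GRCm38). The fit was tested on simulated data.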

Additional observations from a re-analysis of the deposited data

Results flagged for a closer look

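Fat2 was at 693 CPM in KO/+ replicate 4, far above the 425, 388 and 396 CPM of the other KO/+ libraries, and this library's gap to the nearest one took up 0.879 of the range of the group, above Dixon's 95% critical value for 4 samples. The level was close to the 679 and 688 CPM of WT replicates 1 and 2. In the same library the long genes were at a median of 0.11 relative to their means (log2), Mki67 at 180.0 CPM and Ttr at 6.48 TPM, against 1208 to 2250.3 TPM of Ttr in the other KO/+ libraries, and the part of each was not tested. In all, 14 groups of KO/+ values were checked this way, of which chance flags about 1 in 20.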

How the results depend on the processing

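Across 16 alternatives for each marker, 111 of 112 values kept the direction of the log2 fold change and its side of the threshold, the exception being Rbfox3 without WT replicate 3. On leaving out 1 library the log2 fold change lay between -0.032 and 0.20 for Rbfox3, and the smallest adjusted p of any marker was 0.521 (edgeR; Fat2 and Kcnk9 without KO/+ replicate 4). The count of genes called, 0 with all libraries, was 1 with the replicate block (Eif3j2) and 0 to 1 on leaving out 1 library (Eif3j2, Wdfy1 or Fam220a, named after their values were seen). By DESeq2 the count was 0, and 597 genes had an unadjusted p under 0.05, beside 530 by edgeR. That unadjusted edgeR number was 1029 with the replicate block. On leaving out 1 library it ran from 180 (without KO/+ replicate 1 or 2) to 1562 (without KO/+ replicate 4). The count of transcripts called was 0 with all libraries, 46 with DESeq2 and 3 with no filter (Slc35c2-203, Senp2-205 and Adgrl3-217). It was 0 to 2 on leaving out 1 library, and 0 of the transcripts called were those of the markers. The cause of these differences was not tested. Replicate numbers did not pair the libraries: correlations of same-numbered deviations were 0.32, -0.18 and -0.17, and the replicate block put the difference in Slc17a7 share at 5.94 percentage points (exact test over 3 pairs, p = 0.25, the smallest it can give). Arms of 3 and 4 libraries limit precision, with a median SE of 0.14 for a log2 fold change.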
